A study of Mus musculus with 6 samples.

Results

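The proteasome genes of mouse liver were taken as every gene whose symbol is Psm followed by a letter from a to g, a number and at most 1 more letter. This gave 49 of the 24197 genes in the authors' deposited table, matched by symbol, with no measured value in the rule. Of these, 31 encode constitutive subunits of the core and regulatory particles, 5 encode the inducible catalytic subunits Psmb8, Psmb9 and Psmb10 and the PA28 activator subunits Psme1 and Psme2, and 13 are other activators, an inhibitor, assembly chaperones and tissue-restricted or copied genes. Poly-A RNA was sequenced from intact CD-1 mice, an outbred stock, in 3 liver pools per sex. Per the deposited legend, each male pool held 17 livers from mice aged 7 to 9 weeks, and each female pool held 12 livers from mice aged 7 to 11 weeks, so pool size and upper age went with sex. No other treatment or allele is named in the labels, and nothing there says whether a liver went into more than 1 pool.

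The proteasome is the protease that degrades proteins tagged with ubiquitin. Its core particle is a barrel of stacked alpha and beta rings, in which Psmb5, Psmb6 and Psmb7 carry the catalytic sites, and a regulatory particle of ATPases and other subunits unfolds the substrate and opens the gate. Interferon induces Psmb8, Psmb9 and Psmb10, which take the places of Psmb5, Psmb6 and Psmb7 in newly built cores, and the resulting immunoproteasome cuts peptides suited to MHC class I molecules. It is abundant in cells of the immune system and is present at lower levels in many tissues, the liver among them.

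The promoters of some inducible and constitutive members are shown here because the inducible and the constitutive catalytic subunits are known for different control. Each runs from 250 bases before to 50 bases after the RefSeq transcription start, 5′ to 3′, on build GRCm38.p6, which is not the build of the expression table. They belong to Psmb8 (chr17:34197945-34198244, plus strand), Psmb9 (chr17:34187281-34187580, minus strand), Psmb10 (chr8:105938343-105938642, minus strand), Psme1 (chr14:55578244-55578543, plus strand), Psmb5 (chr14:54617946-54618245, minus strand) and Psmb6 (chr11:70525107-70525406, plus strand). Capitals mark matches, on either strand, to the motifs described after them.
Psmb8: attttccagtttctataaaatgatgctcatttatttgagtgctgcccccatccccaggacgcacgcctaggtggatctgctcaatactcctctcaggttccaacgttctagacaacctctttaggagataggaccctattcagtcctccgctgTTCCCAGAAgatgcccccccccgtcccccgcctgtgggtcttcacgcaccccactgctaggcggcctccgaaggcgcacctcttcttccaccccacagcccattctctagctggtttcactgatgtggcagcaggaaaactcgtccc
Psmb9: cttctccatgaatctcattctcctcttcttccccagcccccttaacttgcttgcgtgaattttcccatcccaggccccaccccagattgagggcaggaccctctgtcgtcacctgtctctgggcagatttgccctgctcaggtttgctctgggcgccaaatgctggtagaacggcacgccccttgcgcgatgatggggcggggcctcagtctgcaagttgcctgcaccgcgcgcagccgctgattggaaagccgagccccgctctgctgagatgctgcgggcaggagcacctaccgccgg
Psmb10: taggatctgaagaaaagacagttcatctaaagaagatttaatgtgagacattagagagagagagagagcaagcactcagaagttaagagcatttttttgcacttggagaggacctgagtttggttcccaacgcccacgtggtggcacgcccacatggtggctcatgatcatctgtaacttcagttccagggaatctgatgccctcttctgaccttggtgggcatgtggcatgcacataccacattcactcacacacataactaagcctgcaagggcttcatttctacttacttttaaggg
Psme1: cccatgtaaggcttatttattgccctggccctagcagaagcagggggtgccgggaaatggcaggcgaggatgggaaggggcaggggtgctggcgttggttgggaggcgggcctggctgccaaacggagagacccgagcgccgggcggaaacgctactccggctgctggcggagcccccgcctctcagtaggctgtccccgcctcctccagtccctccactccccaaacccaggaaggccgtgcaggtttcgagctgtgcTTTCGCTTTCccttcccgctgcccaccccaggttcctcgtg
Psmb5: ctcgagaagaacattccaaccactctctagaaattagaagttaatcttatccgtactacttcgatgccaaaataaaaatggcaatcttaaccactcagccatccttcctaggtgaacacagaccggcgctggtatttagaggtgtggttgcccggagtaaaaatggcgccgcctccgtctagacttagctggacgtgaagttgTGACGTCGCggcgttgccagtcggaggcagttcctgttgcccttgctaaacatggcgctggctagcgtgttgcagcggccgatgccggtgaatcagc
Psmb6: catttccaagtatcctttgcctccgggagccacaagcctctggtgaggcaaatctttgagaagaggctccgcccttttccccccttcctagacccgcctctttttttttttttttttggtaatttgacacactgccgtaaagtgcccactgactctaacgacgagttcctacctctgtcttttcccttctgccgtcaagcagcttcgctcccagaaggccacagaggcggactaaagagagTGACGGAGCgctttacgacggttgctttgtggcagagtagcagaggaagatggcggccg
The search used TTCNNNGAA, the gamma-activated site of interferon gamma signalling, a core of the interferon-stimulated response element bound by IRF and ISGF3 factors (GAAA, any 2 bases, GAAA), and TGACNNNGC, the antioxidant response element bound by NFE2L1 and NFE2L2 with small MAF partners. Psmb8 held a gamma-activated site that starts 97 bases upstream of the transcription start, and Psme1 held the interferon-stimulated core 9 bases downstream of it. Psmb5 and Psmb6 held the antioxidant response element 47 and 9 bases upstream. Psmb9 and Psmb10 held none of these letters in this window, and neither did Psme2, which is not shown. Of the 5 inducible and PA28 genes, 1 held the gamma-activated site, 1 the interferon-stimulated core and 0 the antioxidant response element. Of the 25 constitutive genes with a promoter entry, 1, 2 and 4 held them, in that order. Over the 44 RefSeq promoters of the 41 members that had one, the antioxidant response element was in 13.6% against 12.4% of all 32851 mouse promoters of this length, the interferon-stimulated core in 11.4% against 3.44%, and the gamma-activated site in 6.82% against 8.3%. The 5 member promoters with the interferon-stimulated core were those of Psmb3, Psmd4, Psmd9, Psme1 and Psmg4, and no matches to different motifs overlapped. Psma8, Psmb1, Psmb2, Psmb7, Psmc3, Psmd3, Psmd7 and Psmg2 had no entry.

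All values are the authors' mean FPKM over the 3 pools of a sex, that is fragments scaled to gene length and library total, so levels can be compared between genes. The authors' ratio of male over female was normalized further between the sexes, and a gene is called here when the authors' adjusted p is under 0.05. No values of single pools entered, so no mean carries a standard deviation and no overlap between pools can be given. Library totals recovered from the lowest values lay between 28358105 and 42673908 reads, and 1 read per kilobase in 1 pool adds 0.00781 to 0.0118 FPKM to a sex's mean. Ddx3y, Eif2s3y, Kdm5d and Uty, which are Y-linked, had means of 1.9 to 16.1 FPKM in male liver and at most 0.0645 FPKM in female liver, while Xist had 0.0199 FPKM in male and 22.5 in female liver. Gene bodies of 46 members passed the minimum of 0.5 FPKM, taken as the mean of both sexes, together with 10936 genes in all. The 3 that did not were Psma8, Psmb11 and Psme2b.

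In the comparison of male with female liver, which asks for sex differences in expression, the inducible catalytic subunits fell in male liver and the rest of the proteasome did not pass the threshold. Psmb8, Psmb9 and Psmb10 were called lower in male liver, Psme1 and Psme2 had ratios below 1 without a call, and 29 of the 31 constitutive genes had ratios above 1 without a call. In all, 3 of 46 measured members were called (6.52%), against 13.8% of all measured genes, and none was called higher in male liver, against 6.68% of all measured genes. The share of the whole family is thus under the background. All 3 calls were lower in male liver, a direction in which 7.14% of all measured genes were called. The count of 0 rests on the authors' adjusted p. The processing notes name edgeR without saying what it was used for. Unadjusted p-values and other tools were not used here.

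**Figure D1:**
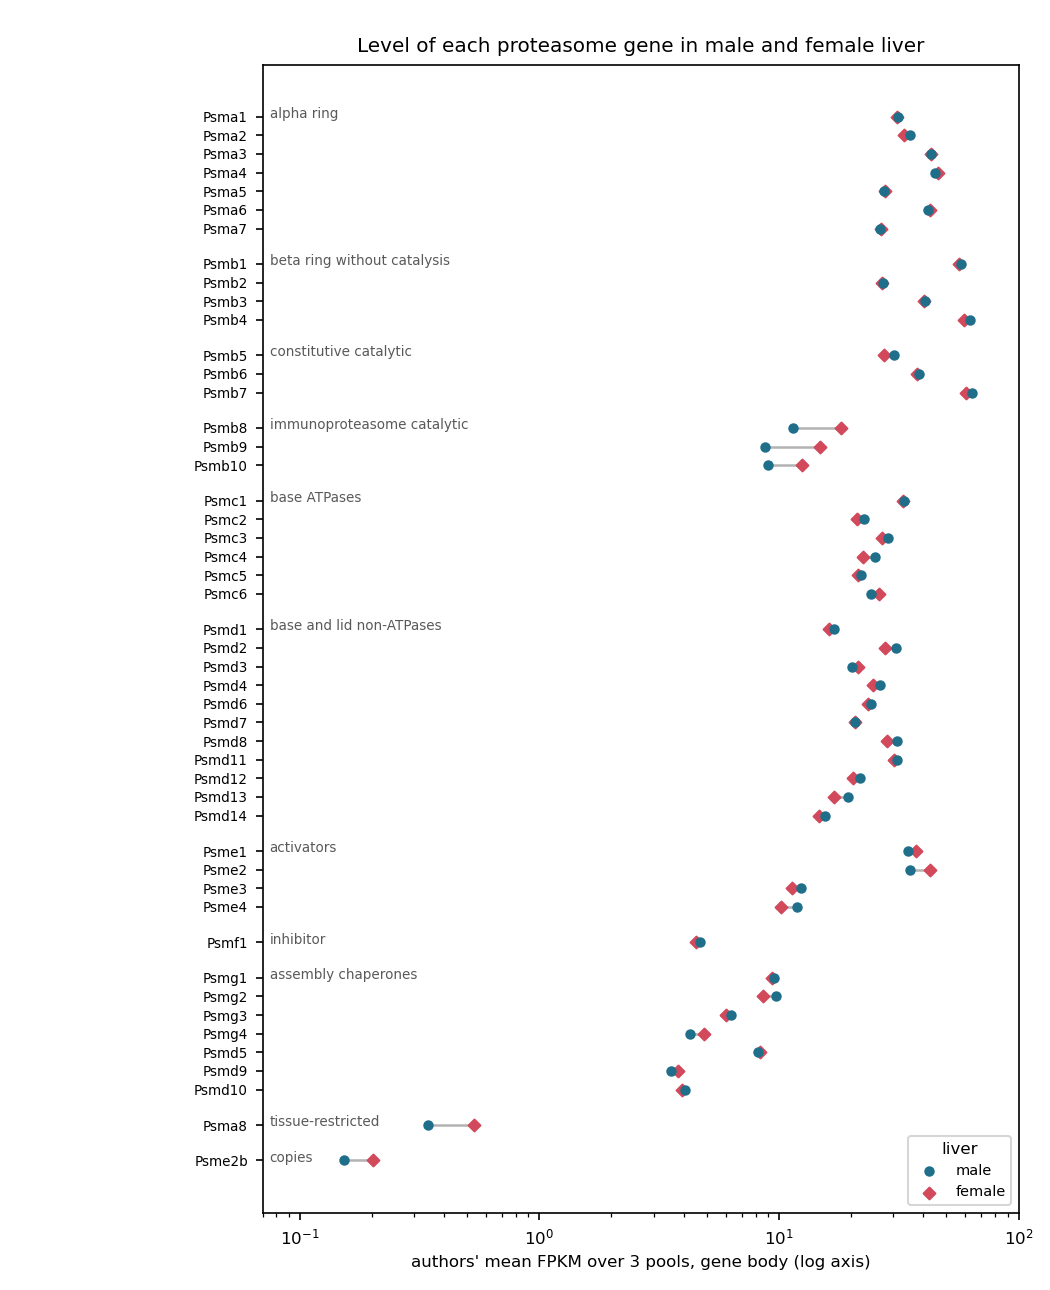
Authors' mean FPKM of gene bodies (log axis) for each proteasome gene in male (circles) and female (diamonds) liver, grouped by role, with a line joining the sexes; each point is the mean of 3 pools, without a measure of spread. Psmb11 is at 0 in both sexes and is not drawn. Psmb8, Psmb9 and Psmb10 lie between 8.76 and 18.1 FPKM and show the widest gaps between the sexes among the measured genes.

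Psmb8 (LMP7, which replaces Psmb5 and cuts after hydrophobic residues; chromosome 17, 34335140 to 34338399, build mm9) had a mean of 11.5 FPKM in male livers and 18.1 FPKM in female livers. The authors' deposited table gave it a ratio of 0.662 (log2 ratio -0.60) with an adjusted p of 0.00294. Psmb9 (LMP2, which replaces Psmb6; chromosome 17, 34319044 to 34324275) had 8.76 FPKM in male livers and 14.8 FPKM in female livers. In the authors' deposited table its ratio was 0.613 (log2 ratio -0.70), farther from 1 than that of any other measured member, with an adjusted p of 0.0203. Psmb10 (MECL-1, which replaces Psmb7; chromosome 8, 108459628 to 108462292) had 9.02 FPKM in male livers and 12.5 FPKM in female livers. The authors' deposited table gave Psmb10 a ratio of 0.748 (log2 ratio -0.42) with an adjusted p of 0.0269. Psmb8 is the most abundant of these inducible subunits in both sexes. Psmb10 was the least abundant in female liver, and Psmb9 was the least abundant in male liver, where it lay close to Psmb10. At an adjusted p under 0.01, Psmb8 alone was left of the members. Of all measured genes 9.47% passed that limit, made up of 4.64% higher and 4.84% lower in male liver. At a further limit of 1.5-fold Psmb8 and Psmb9 were left.

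The catalytic subunits they replace lay the other way by small ratios that were not called. Psmb5, the chymotrypsin-like subunit (chromosome 14, 55232957 to 55236832, build mm9), had 30.1 FPKM in male livers and 27.5 FPKM in female livers, and the authors' deposited table gave a ratio of 1.14 with an adjusted p of 0.346. Psmb6, the caspase-like subunit (chromosome 11, 70338859 to 70341360), had 38.3 FPKM in male and 37.7 in female liver (ratio 1.05, adjusted p 1 in the authors' deposited table). Psmb7, the trypsin-like subunit (chromosome 2, 38443566 to 38499426), was the most abundant member of the family, with 64 FPKM in male livers and 60.2 FPKM in female livers (ratio 1.1, adjusted p 0.559 in the authors' deposited table). Each inducible subunit therefore made up a smaller part of its pair in male liver. The level of Psmb8 was 0.383 times that of Psmb5 in male and 0.658 times in female liver. Psmb9 was at 0.229 times Psmb6 in male and 0.393 times in female liver, and Psmb10 at 0.141 times Psmb7 in male and 0.208 times in female liver. Summed over the 6 genes, the inducible subunits accounted for 18.1% of the FPKM in male and 26.6% in female liver. In gene bodies the constitutive member of each pair was the more abundant in both sexes. The difference between members of a pair in their log2 ratio was -0.78 for Psmb8 and Psmb5, -0.78 for Psmb9 and Psmb6, and -0.56 for Psmb10 and Psmb7, and it was not tested, since it needs values per pool.

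**Figure D2:**
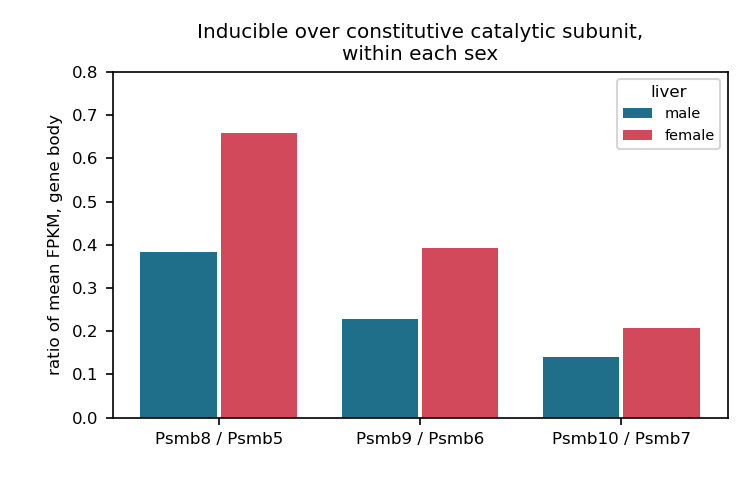
Ratio of the authors' mean FPKM of each inducible catalytic subunit to that of the constitutive subunit it replaces, in male (left bars) and female (right bars) liver; bars are single ratios of means over 3 pools, with no error. Male bars stand at 0.383, 0.229 and 0.141, and female bars at 0.658, 0.393 and 0.208.

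The activators are rings or single chains that bind the ends of the core without using ATP. Psme1 and Psme2, the alpha and beta subunits of the interferon-induced PA28 ring, are neighbours on chromosome 14 (56197331 to 56200364 and 56206277 to 56209858, build mm9) with 5912 bases between them. Psme1 had 34.6 FPKM in male livers and 37.2 FPKM in female livers, and the authors' deposited table gave a ratio of 0.966 with an adjusted p of 1. Psme2 had 35.2 FPKM in male livers and 42.6 FPKM in female livers, with a ratio of 0.856 and an adjusted p of 0.217 in the authors' deposited table. Neither was called, and the level of Psme1 was 0.985 times that of Psme2 in male and 0.873 times in female liver. Psme3, the nuclear PA28 gamma subunit, had 12.4 FPKM in male and 11.3 in female liver (ratio 1.13, adjusted p 0.337 in the authors' deposited table). Psme4, the PA200 activator, had 11.9 FPKM in male livers and 10.2 FPKM in female livers, and with an adjusted p of 0.0562 and a ratio of 1.2 in the authors' deposited table it was the member just outside the threshold. Psmb10, at 0.0269, was the one just inside it. Taken as the group of 5, the inducible and PA28 genes had a median log2 ratio of -0.42, against a median of 0.01 over all measured genes. Of these 5, 3 were called lower in male liver, against 7.14% of all measured genes. The median is that of Psmb10, and the values ran from -0.70 for Psmb9 to -0.05 for Psme1. Psmf1, the PI31 protein first described as an inhibitor of the core, had 4.68 FPKM in male and 4.5 in female liver (ratio 1.08, adjusted p 0.887 in the authors' deposited table).

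**Figure D3:**
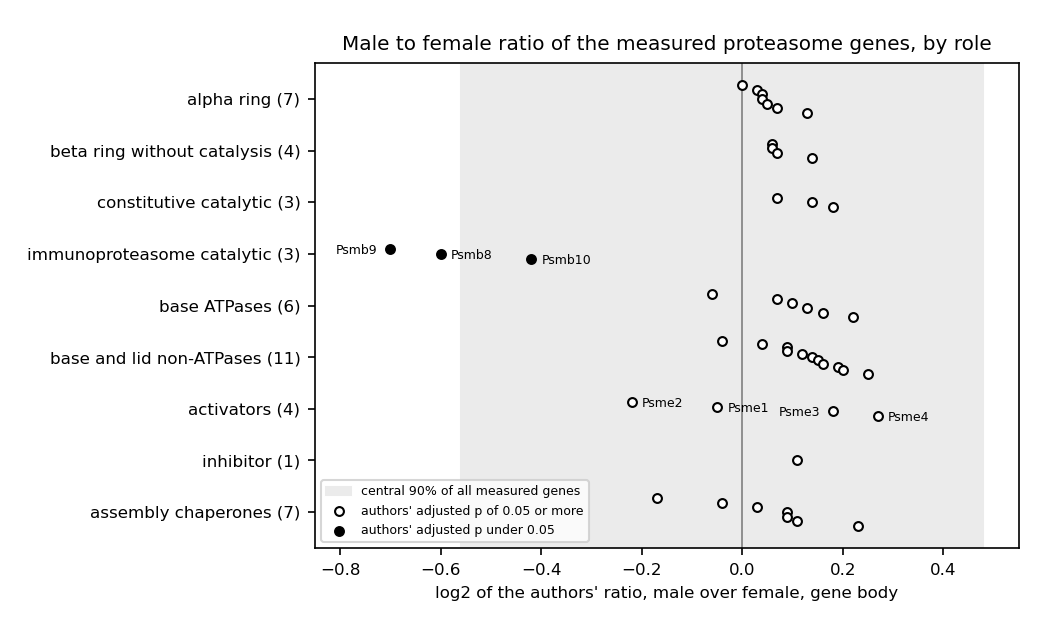
Log2 of the authors' ratio of male over female for gene bodies of the 46 measured members, by role, with filled points for an authors' adjusted p under 0.05; the grey band runs from -0.56 to 0.48 and holds the central 90% of all 10936 measured genes. Psmb8 and Psmb9 lie outside the band and the other 44 members inside it, most of them between 0 and 0.27.

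The constitutive subunits had ratios close to 1. None of the 31 was called in either direction, their log2 ratios ran from -0.06 to 0.25 with a median of 0.09, and their means ran from 15.6 to 64 FPKM in male and from 14.7 to 60.2 FPKM in female liver. Psmc6 and Psmd3, named after their values were seen, were the only ones among them with a ratio below 1 (0.962 and 0.974). The side of 1 depends on the scaling: the mean FPKM of 6 genes with a ratio above 1 (Psma3, Psma4, Psma5, Psma6, Psma7 and Psmd7) was lower in male than in female liver. From the means alone 23 of 31 lay above 1 and the median was 0.04, while the median of all measured genes was -0.04. Within each role, members are ordered by the mean of both sexes. In the alpha ring, which gates the core, Psma4 was highest (44.7 FPKM in male livers and 46.3 FPKM in female livers) and Psma7 lowest (26.5 FPKM in male and 26.7 in female liver). Among the beta subunits without a catalytic site, Psmb4 was highest (63 FPKM in male and 59.3 in female liver) and Psmb2 lowest (27.2 FPKM in male and 27 in female liver). The ATPases of the base, which unfold the substrate, ran from Psmc5 (22 FPKM in male livers and 21.3 FPKM in female livers) to Psmc1 (33.4 FPKM in male and 33.1 in female liver). The other base and lid subunits, which bind ubiquitin, remove it or hold the particle together, ran from the deubiquitinase Psmd14 (15.6 FPKM in male livers and 14.7 FPKM in female livers) to Psmd11 (31.2 FPKM in male and 30.3 in female liver). Their medians were 21.8 FPKM in male livers and 21.4 FPKM in female livers, under those of the alpha ring at 35.1 FPKM in male and 33.3 in female liver. Psmd13, a lid subunit named after its value was seen, had the lowest adjusted p of the constitutive genes in the authors' deposited table (0.105, ratio 1.19). It had 19.5 FPKM in male livers and 17 FPKM in female livers.

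The assembly chaperones, which build alpha rings and the base and leave the finished particle, were lower in level than the constitutive subunits and none of the 7 was called. By the mean of both sexes, Psmg1 was the highest, with 9.52 FPKM in male livers and 9.34 FPKM in female livers, and Psmd9 the lowest, with 3.56 FPKM in male and 3.81 in female liver. Their log2 ratios ran from -0.17 to 0.23, with a median of 0.09. The lowest adjusted p among the chaperones in the authors' deposited table was 0.272, for Psmg2, which had 9.77 FPKM in male livers and 8.57 FPKM in female livers. The members under the minimum were known from other tissues or a copy. Psma8, the alpha subunit of the testis proteasome, had 0.344 FPKM in male livers and 0.535 FPKM in female livers (adjusted p 0.242 in the authors' deposited table). Psmb11, the catalytic subunit of the thymus proteasome, was listed at 0 in both sexes. Psme2b, a copy of Psme2 (chromosome 11, 48758851 to 48759912, build mm9), had 0.153 FPKM in male and 0.202 in female liver (adjusted p 1 in the authors' deposited table), and its reads may be shared with the far more abundant Psme2, so its level is uncertain.

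Intron values give a further readout of the same libraries, in which reads from unspliced RNA are counted. None of the 46 measured members was called in introns. Of all 10341 genes with intron values 4.1% were called, made up of 2.28% higher and 1.82% lower in male liver. All 5 inducible and PA28 genes had intron ratios below 1, with a median log2 ratio of -0.48 against 0.00 over all genes with introns. The authors' deposited table gave Psmb8 introns 0.262 FPKM in male livers and 0.528 FPKM in female livers, a ratio of 0.538 with an adjusted p of 0.199. For Psmb10 introns it gave 0.45 FPKM in male and 0.722 in female liver, a ratio of 0.682 with an adjusted p of 0.809. Psmb9 introns had 0.274 FPKM in male livers and 0.414 FPKM in female livers (ratio 0.719, adjusted p 1 in the authors' deposited table). The constitutive genes split evenly, with 16 of 31 intron ratios above 1 and a median log2 ratio of 0.02. The intron value farthest from 1 among the constitutive genes was that of Psmb7, with 0.0633 FPKM in male livers and 0.0516 FPKM in female livers (ratio 1.35, adjusted p 0.446 in the authors' deposited table). Unlike in gene bodies, Psmb8 introns were at 2.06 times Psmb5 introns in male and 3.85 times in female liver. Psmb10 introns were at 7.1 times Psmb7 introns in male and 14 times in female liver. Psmb9 introns stayed under those of Psmb6, at 0.326 times in male and 0.469 times in female liver. Intron FPKM relative to gene body FPKM was higher in the inducible catalytic genes than in the typical constitutive gene. It stood at 2.28% in male and 2.92% in female liver for Psmb8, at 3.13% in male and 2.8% in female liver for Psmb9 and at 4.98% in male and 5.77% in female liver for Psmb10, against medians of 0.77% in male and 0.851% in female liver for the constitutive genes. Psma7, at 2.86% in male and 3.26% in female liver, and Psmb6, at 2.2% in male and 2.34% in female liver, were also high among the constitutive genes, and Psma7 lay above Psmb8 in both sexes. The assembly chaperone Psmg3, named after its values were seen, stood at 4.44% in male and 6.25% in female liver. The medians of all measured genes were 1.51% in male and 1.62% in female liver. Neither these percents nor the intron levels within pairs were compared at equal gene length. By their mm9 spans Psmb8, Psmb9 and Psmb10 are short, as are Psmb6, Psma7 and Psmg3, while Psmb7 is far longer. Psmb5, also short, stood at 0.423% in male and 0.499% in female liver. The part of gene length was not tested. The intron ratios repeat the direction of the gene bodies for the 5 inducible genes, but they come from the same pools and are no independent replicate.

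**Figure D4:**
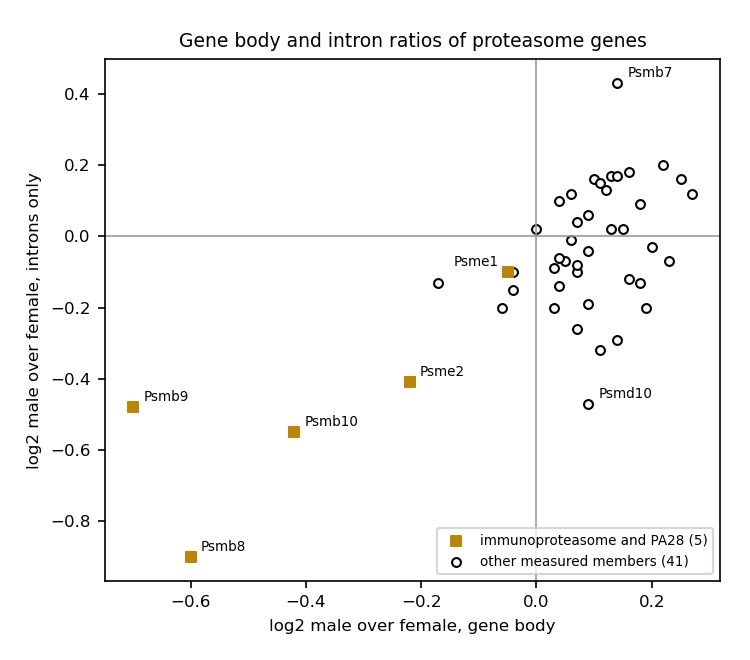
Log2 ratio of male over female for gene bodies (horizontal) and for introns only (vertical) of the 46 measured members, with squares for the 5 inducible and PA28 genes and open circles for the other 41. All 5 squares lie below 0 on both axes, from -0.05 and -0.10 for Psme1 to -0.60 and -0.90 for Psmb8, while the circles scatter on both sides of 0 for introns.

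Psmb8 and Psmb9 lie in the MHC on chromosome 17 with the peptide transporter genes Tap1 and Tap2 between and beside them. On build mm9, 225 bases separate Psmb9 from Tap1, 969 bases Tap1 from Psmb8 and 3024 bases Psmb8 from Tap2. Within 100000 bases of this block, 8 genes other than Psmb8 and Psmb9 were measured, all with ratios below 1. This window was chosen, like the neighbours named from it, after values were seen. Of the 8 genes, 4 were called lower in male liver, a call made for 7.14% of all measured genes. Tap2 had 7.29 FPKM in male livers and 10.9 FPKM in female livers, with a ratio of 0.692 and an adjusted p of 5.69e-05 in the authors' deposited table. Tap1 had 3.02 FPKM in male livers and 5.04 FPKM in female livers and was not called (ratio 0.624, adjusted p 0.0812 in the authors' deposited table). The other called neighbours belong to MHC class II. H2-Aa, for example, had 2.49 FPKM in male livers and 5.14 FPKM in female livers, and the ratios of H2-Aa, H2-Ab1 and H2-DMb1 in the authors' deposited table were 0.504, 0.439 and 0.446. Of 10 measured genes within the same distance of Psmb10, Slc12a4 was called, higher in male liver, and the log2 ratios had a median of 0.05. Around Psme1 and Psme2 it was Fitm1 of 12 genes, also higher in male liver, with a median of 0.01. Of all measured genes 6.68% were called higher in male liver. The difference between these windows was not tested.

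Most genes that supply and load peptides for MHC class I or carry the interferon gamma signal were not called. Of 22 measured genes 18 were not called, 4 were called lower in male liver, a call made for 7.14% of all measured genes, and none was called higher, with a median log2 ratio of -0.14, against 0.01 over all measured genes. H2-Q4, a class I gene with close copies that make its reads uncertain, had 9.84 FPKM in male livers and 16.1 FPKM in female livers (ratio 0.634, adjusted p 0.000459 in the authors' deposited table). Tap2 was among the calls, and so was Tapbp, named after its value was seen, which encodes the tapasin that loads peptide (13.4 FPKM in male livers and 19.9 FPKM in female livers). B2m and Calr, the most abundant genes not called, had 659 and 221 FPKM in male liver and 773 and 215 FPKM in female liver. Ratios lay above 1 for 6 of the 22 genes.

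The partners that build, control or feed the constitutive proteasome showed a single call. Of 16 measured regulators and partners none was called, against 13.8% of all measured genes called in either direction. The lowest adjusted p among them in the authors' deposited table was 0.155, and their log2 ratios had a median of 0.06. Pomp, the chaperone of core maturation, had 61.1 FPKM in male livers and 62.4 FPKM in female livers, and Shfm1, a small lid subunit, had 33.9 FPKM in male and 34.2 in female liver. Nfe2l1, the factor that raises subunit genes when proteasome activity falls and that was named after its value was seen, had 12.4 FPKM in male livers and 13 FPKM in female livers. Of 14 measured genes of ubiquitin supply and delivery 1 was called, higher in male liver, and their log2 ratios had a median of 0.11. That share is close to the 6.68% of all measured genes called higher in male liver. The called gene was Nploc4, a cofactor of the VCP unfoldase, at 10.5 FPKM in male livers and 9.04 FPKM in female livers (ratio 1.2, adjusted p 0.047 in the authors' deposited table). Ubb, a polyubiquitin gene and among the most abundant genes not called, had 109 FPKM in male livers and 119 FPKM in female livers.

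Markers of liver macrophages moved with the inducible subunits. In bulk liver, fewer cells of a type and less RNA per cell cannot be told apart. For the counts of calls that follow, 7.14% of all measured genes were called lower and 6.68% higher in male liver. These shares leave out genes under the minimum, whereas the marker counts include them. Under it were all B, T and NK and dendritic cell markers and some neutrophil and cholangiocyte markers. All 11 measured markers of Kupffer cells and macrophages were called lower in male liver. They had a summed level of 112 FPKM in male livers and 175 FPKM in female livers and a median log2 ratio of -0.58. Marco, a scavenger receptor, had 1.15 FPKM in male livers and 9.08 FPKM in female livers, and the other 10 markers had ratios from 0.626 to 0.744 in the authors' deposited table. The ratio of Psmb8 (0.662) lay in that range, that of Psmb9 (0.613) under it and that of Psmb10 (0.748) above it. Without Marco, the other markers summed to 111 FPKM in male livers and 166 FPKM in female livers. Ptprc, carried by all leukocytes, had 1.03 FPKM in male livers and 1.67 FPKM in female livers (adjusted p 0.00987 in the authors' deposited table). The markers of T and NK cells were all under the minimum, summed to 0.944 FPKM in male livers and 1.71 FPKM in female livers, and Cd3e and Ncr1 among the 8 were called lower in male liver. Ratios lay below 1 for 6 of the 8, while Cd4 (1.46) and Cd8b1 (2.31) had ratios above 1 without a call. The 5 B cell markers summed to 0.884 FPKM in male and 1.15 in female liver with no call, and the 5 dendritic cell markers to 0.44 FPKM in male and 0.766 in female liver, with Siglech called lower in male liver. Neutrophil markers lay the other way, at 7.62 FPKM in male livers and 5.32 FPKM in female livers over 4 genes, with no call. The 5 endothelial markers, none called, summed to 39.8 FPKM in male livers and 47 FPKM in female livers. The 5 stellate cell markers, of which Lrat and Reln were called lower in male liver, summed to 10.9 FPKM in male livers and 13.3 FPKM in female livers. The 4 cholangiocyte markers summed to 1.86 FPKM in male livers and 1.85 FPKM in female livers with no call. Of the 5 hepatocyte markers Alb was called lower and Apoa1 higher in male liver, and Ttr, Hnf4a and Asgr1 were not called, and all 5 together summed to 17632 FPKM in male livers and 23353 FPKM in female livers. Without Alb, a choice made after seeing the data as for Marco, the other 4 summed to 5023 FPKM in male livers and 3942 FPKM in female livers. Markers named with these counts were picked after their values were seen. No listed marker in the table was at 0 in both sexes. The part of any of these cell types in the values of Psmb8, Psmb9 and Psmb10 was not tested.

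**Figure D5:**
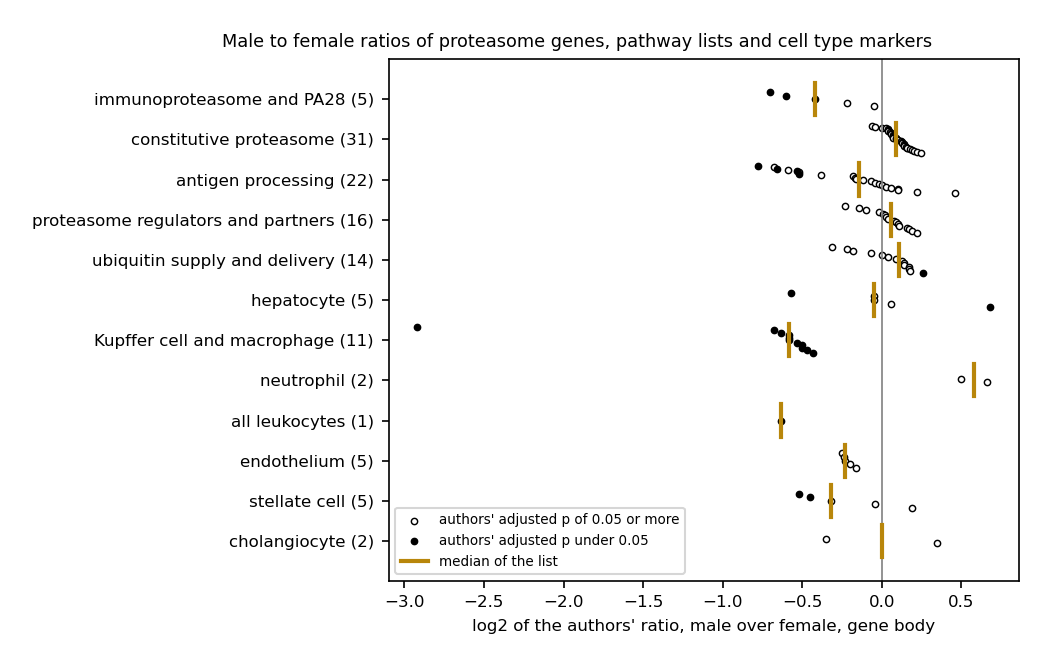
Log2 of the authors' ratio of male over female for gene bodies in the proteasome groups, the pathway lists and the cell type marker lists (measured genes only, number in brackets; lists with none are not drawn), with filled points for an authors' adjusted p under 0.05 and a bar at each list's median. The inducible and PA28 genes have a median of -0.42, the Kupffer cell and macrophage markers of -0.58 and the constitutive genes of 0.09.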

How the data were processed

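Per the labels, poly-A RNA was made into strand-specific libraries. The submitters' processing notes name TopHat2, featureCounts, edgeR and build mm9, without versions or roles. Per the file headers, the authors deposited FPKM averaged within each sex, the normalized ratio of males to females (also as signed fold) and its adjusted p-value, once for gene bodies and once for introns. The way p was adjusted is not given in the sources used here. This ratio exceeded that of the 2 means by a median factor of 1.04 (9421 genes of at least 1 FPKM).

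The files used give no value per pool, so the planned fits over pools were replaced by a description of the authors' comparison, with calls at an adjusted p under 0.05. Genes were measured if their mean over both sexes reached 0.5 FPKM. The samples were pools of animals, so the p-values do not measure the spread between single animals. Whether pools of a sex shared livers is not stated, so what spread between pools stands for is not known. The members are found by symbol alone, but the family, and so its members, and the lists were chosen with earlier results of these data known. Named by rule were the catalytic, activator, inhibitor and tissue-restricted members, called members, those nearest the threshold, the highest and lowest of each role, and per pathway list up to 3 called genes per direction and the 2 most abundant uncalled ones. The text says where others were picked on their values, and a few genes under the rule are not reported here. Coordinates count from 1. Alternatives were other thresholds and filters, pseudocounts of 0.01, 0.1 and 1, quantile normalization, rescaling without the 50 most abundant genes, and introns. The counting of calls, the rescalings and the motif search were checked on simulated data. The p-values there were set beforehand, so the check says nothing about the authors' calls. The software was Python 3.11.15 (numpy 2.4.6, pandas 2.3.3, matplotlib 3.10.9).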

Additional observations from a re-analysis of the deposited data

How the results depend on the processing

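The count of 3 proteasome genes called lower in male liver was 1 at an adjusted p under 0.01 and 0 in introns. The cause was not tested. It was 2 at a further limit of 1.5-fold, and 3 without a filter on low values, with the minimum raised to 2 FPKM and without Psme2, whose table entry gives more than 1 span. The count of genes called higher in male liver was 0 under each of these. The median log2 ratio of the 5 inducible and PA28 genes was -0.42 and lay between -0.48 and -0.42 under the other scalings, filters and introns. That of the constitutive genes was 0.09 and lay between 0.02 and 0.09. Under the scalings and pseudocounts tried, the log2 ratio of each of the 46 measured members moved by at most 0.1. In introns it moved by more than 0.1 for 25 of the 43 members that were not called, and also for Psmb8 (to -0.90), Psmb9 (to -0.48) and Psmb10 (to -0.55), which kept their sign and lost the call. No paired analysis was possible because the deposited columns hold means per sex and carry no pool number, and leaving out each pool in turn was not run for the same reason. The age and pool size that differ between the sexes cannot be told apart from sex.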
